A study of Mus musculus with 6 samples.

Results

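Interferon-stimulated genes are the genes that a cell transcribes after an interferon has bound its receptor, and 36 of them were followed here in mouse kidney after its blood flow had been stopped and restored. By textbook grouping, 23 of the 36 are mainly answers to the type I interferons alpha and beta and are called type I-like below, and 13 are mainly answers to interferon gamma and are called gamma-like, although many genes answer to both. The genes were chosen by their symbols in the platform annotation, and each was read from its single-symbol probe set with the highest mean intensity over the arrays. Such a probe set was found for 34 of the 36. Isg15 stood only on a probe set that names several genes and Ifi44 was not matched, so neither has an intensity here. Both are counted only among the promoter windows below. A filter on low values, a mean log2(intensity + 16) over all arrays of at least 6.01, was passed by 32 of the 36, namely 19 type I-like and all 13 gamma-like genes, and by 12734 of the 18193 genes that had such a probe set.

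RNA from whole kidney of male FVB/N mice, aged 6 to 8 weeks, was hybridised to 6 Affymetrix arrays. The pedicle of 1 kidney, which holds its artery and vein, was clamped for 0, 45 or 60 min under pentobarbital anaesthesia and released, and the kidney was taken 1 or 3 days later. Each of the 6 combinations was 1 array, so the kidneys with a clamp time of 0 min are the controls for both days, and the labels do not say how many animals an array stands for. The series concerns blockade of TNF after such an injury, but the labels of these 6 kidneys name no blocker, and kidneys given one are not analysed here. With 1 array per combination there is no replicate error for a single kidney, the arrays of the other day or clamp time stand in for replicates in the tests, and their number limits the precision.

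The deposited values are linear intensities scaled to a common trimmed mean on every array. The median intensity was 81.1 to 95.0 on the 6 arrays. Kidney markers were bright on all of them, with Umod of the loop of Henle between 27164 and 39076 and Slc34a1 of the proximal tubule between 13046 and 24702. RNA quality was read from the actin control probe sets as their 3' minus 5' log2 intensity. It was 1.03 to 1.12 on 4 arrays, 0.77 in the 0 min kidney of day 3 and 0.49 in the 60 min kidney of day 3. For the Gapdh controls it was -0.23 to -0.20 on day 1. On day 3 it was -0.37 at 0 min, -0.33 at 45 min and -0.37 at 60 min. Over all 12734 genes tested, the fits gave 0 genes with an adjusted p under 0.05 (limma, Benjamini-Hochberg) in each of the 4 contrasts described below, or 0%, so single genes are given with their differences and standard errors, and none is called changed.

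Type I interferons bind the receptor made of Ifnar1 and Ifnar2, whose kinases Jak1 and Tyk2 activate STAT proteins; with Irf9 these form a complex that binds the interferon-stimulated response element in promoters. Interferon gamma binds Ifngr1 and Ifngr2, acts through Jak1 and Jak2, and leads to STAT dimers on the gamma-activated site; one of the first genes they switch on is Irf1, itself a transcription factor for response elements. The products of the responding genes block viral replication, attack vacuoles that hold microbes and prepare peptides for display to T cells, and in the kidney they are known from infection, lupus nephritis and transplant rejection.

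Some promoters of these genes carry letters that either or both routes read, and 9 stretches are shown so that the elements can be seen beside the values. The RefSeq promoter table, on GRCm38.p6, held 28 of the 36 genes, with windows from 250 bases before to 50 after a gene's start. The response element was searched as GAAANNGAAA and the gamma-activated site as TTCNNNGAA, each on both strands and with overlaps allowed. A response element match was present in 8 of 16 type I-like and 5 of 12 gamma-like genes, against 3.99% of the 27025 genes in the table. A gamma-activated site match was present in 4 of 16 type I-like and 5 of 12 gamma-like genes, against 9.55% of all genes in the table. The stretches run 5' to 3' on the gene's strand over the 160 bases before the start, with matches in capitals. The 6 gamma-like genes come first, from the guanylate-binding protein genes to the immunoproteasome gene Psmb8, followed by the type I-like genes Ifit1, Ifit3 and Oas1a; they were picked, after the values were seen, to show each kind of match.
Gbp2, chr3:142620503-142620662, plus strand: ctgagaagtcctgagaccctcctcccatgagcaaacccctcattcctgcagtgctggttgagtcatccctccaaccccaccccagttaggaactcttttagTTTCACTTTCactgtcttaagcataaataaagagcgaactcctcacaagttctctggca
Gbp3, chr3:142559884-142560043, plus strand: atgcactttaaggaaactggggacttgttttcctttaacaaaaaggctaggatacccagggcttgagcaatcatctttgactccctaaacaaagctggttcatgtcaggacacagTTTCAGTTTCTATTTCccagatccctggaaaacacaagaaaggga
Gbp7, chr3:142530176-142530335, plus strand: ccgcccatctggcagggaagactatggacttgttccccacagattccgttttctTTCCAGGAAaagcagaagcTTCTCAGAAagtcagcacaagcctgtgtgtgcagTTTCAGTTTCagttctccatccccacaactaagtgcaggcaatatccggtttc
Igtp, chr11:58199396-58199555, plus strand: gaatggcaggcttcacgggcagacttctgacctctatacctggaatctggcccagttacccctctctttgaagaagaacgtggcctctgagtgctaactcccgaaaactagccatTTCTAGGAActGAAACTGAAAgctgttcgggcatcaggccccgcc
Irf1, chr11:53769854-53770013, plus strand: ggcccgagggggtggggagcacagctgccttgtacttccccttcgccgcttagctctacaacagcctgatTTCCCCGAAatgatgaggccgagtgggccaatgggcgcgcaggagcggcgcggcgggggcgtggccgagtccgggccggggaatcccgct
Psmb8, chr17:34198035-34198194, plus strand: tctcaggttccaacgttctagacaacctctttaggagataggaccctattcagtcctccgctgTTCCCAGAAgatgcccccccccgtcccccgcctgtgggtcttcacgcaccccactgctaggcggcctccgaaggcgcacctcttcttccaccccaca
Ifit1, chr19:34640729-34640888, plus strand: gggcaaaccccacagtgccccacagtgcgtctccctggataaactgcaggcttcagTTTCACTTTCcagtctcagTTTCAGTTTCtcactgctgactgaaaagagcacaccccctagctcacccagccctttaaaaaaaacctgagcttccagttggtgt
Ifit3, chr19:34583369-34583528, plus strand: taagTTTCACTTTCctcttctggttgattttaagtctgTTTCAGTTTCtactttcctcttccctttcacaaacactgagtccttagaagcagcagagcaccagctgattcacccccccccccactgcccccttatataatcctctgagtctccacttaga
Oas1a, chr5:120907526-120907685, minus strand: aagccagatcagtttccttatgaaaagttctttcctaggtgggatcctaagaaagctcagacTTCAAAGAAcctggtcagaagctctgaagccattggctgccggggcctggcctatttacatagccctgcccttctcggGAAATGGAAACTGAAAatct
In Gbp2 the response element match began 59 bases before the start, and in Gbp7 it began 53 bases before the start, downstream of 2 gamma-activated site matches. Gbp3 held 2 overlapping response element matches, as did Oas1a. Ifit1 and Ifit3 each held 2 separate response element matches and no gamma-activated site match. Irf1 and Psmb8 held a gamma-activated site match alone. Tap1 and Psmb9, which are transcribed away from each other, had windows that share 275 bases and held no match. A match describes letters in the window and says nothing of binding.

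The gamma-like genes were lowest in a 0 min kidney, except Irf8 and Irgm1, and highest in the 60 min kidney of day 3, except Igtp. The guanylate-binding proteins, GTPases that gather on vacuoles holding microbes, gave the clearest order. Gbp2 read 295, 503 and 528 at 0, 45 and 60 min on day 1 and 238, 521 and 858 on day 3. Gbp3 read 255, 532 and 640 on day 1 and 280, 488 and 1071 on day 3. Gbp7 read 613, 895 and 1353 on day 1 and 636, 965 and 1498 on day 3. In all 3 genes, every clamped kidney lay above both 0 min kidneys, and 60 min lay above 45 min on both days. At 60 min of day 3 the ratio of intensities to the 0 min kidney of that day was 3.61 for Gbp2, 3.83 for Gbp3 and 2.36 for Gbp7. A second probe set of Gbp2 (295, 396 and 492, then 303, 556 and 884) and one of Gbp7 (430, 601 and 875, then 269, 436 and 556) had the same order of clamp times.

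The immunity-related GTPases, which act on the same vacuoles, were less uniform. Iigp1 read 378, 625 and 513 on day 1 and 439, 824 and 922 on day 3, so every clamped kidney was above both 0 min kidneys, but 60 min was below 45 min on day 1. Ifi47 read 133, 220 and 229 on day 1 and 258, 256 and 426 on day 3, with the 0 min kidney of day 3 above both clamped kidneys of day 1. The regulatory member Irgm1 read 806, 850 and 1003 on day 1 and 922, 781 and 1412 on day 3. Igtp stayed within a narrow range, at 526, 526 and 667 on day 1 and 483, 588 and 616 on day 3. Irgm1 and Igtp thus had clamped kidneys that overlapped the 0 min kidneys.

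Among the transcription factors of the gamma response, Irf1 read 440, 538 and 718 on day 1 and 489, 601 and 1024 on day 3, with every clamped kidney above both 0 min kidneys. Irf8, a factor of monocytes, macrophages and dendritic cells, read 324, 341 and 378 on day 1 and 339, 315 and 637 on day 3. On this probe set of Irf8 the 60 min kidney of day 3 alone stood apart. A second one above the filter read 259, 318 and 364 on day 1 and 233, 201 and 434 on day 3. There it was again the highest array, but the values of day 1 also rose with clamp time.

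Antigen processing genes also read highest in the 60 min kidney of day 3. Psmb8 and Psmb9 encode catalytic subunits that replace those of the standard proteasome and favour peptides that fit class I molecules, and Tap1 is part of the pump that carries such peptides into the endoplasmic reticulum. Psmb8 read 255, 368 and 380 on day 1 and 373, 423 and 955 on day 3. Psmb9 read 221, 271 and 277 on day 1 and 313, 289 and 505 on day 3. Tap1 read 133, 130 and 189 on day 1 and 93.8, 124 and 222 on day 3. On this probe set of Psmb8 the 60 min kidney of day 3 stood far above every other kidney, and the others overlapped between clamped and 0 min. Its other probe set, below the filter, read 40.6, 61.3 and 50.8 on day 1 and 25.6, 36.6 and 42.9 on day 3. There 45 min of day 1 was the highest array. The other 3 probe sets of Tap1 lay below the filter.

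Ubd, which encodes the ubiquitin-like tag FAT10 that sends proteins to the proteasome, had the largest log2(intensity + 16) difference from a 0 min kidney among the 32 tested. It read 52.7, 58.4 and 99.4 on day 1 and 87.4, 177 and 733 on day 3. The ratio of the 60 min to the 0 min kidney was 1.88 on day 1 and 8.39 on day 3. Its promoter window held neither motif.

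**Figure D1:**
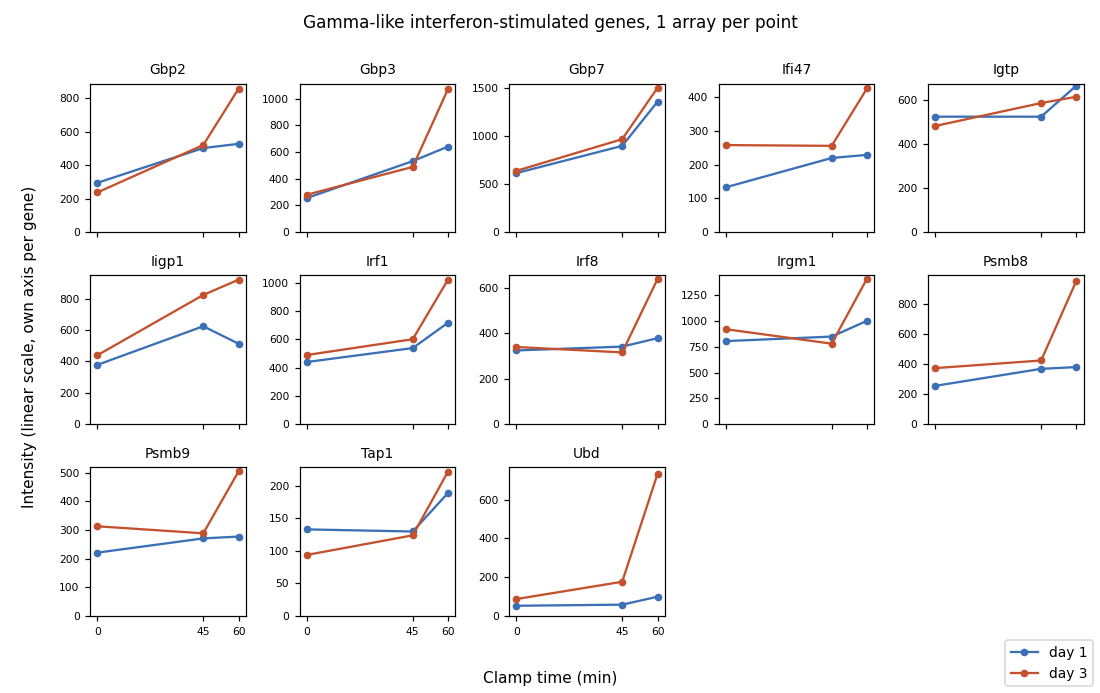
Intensity (linear, an axis of its own for each gene) of the 13 gamma-like genes against clamp time in min, with 1 point per array and lines joining the arrays of a day. Gbp2, Gbp3, Gbp7 and Irf1 follow clamp time on both days, and 12 of the 13 genes, all but Igtp, are highest in the 60 min kidney of day 3.

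Of the type I-like genes, 13 of the 19 past the filter were highest in the 60 min kidney of day 3. The Ifit genes encode proteins that bind viral RNA and stop its translation. Ifit1 read 114, 143 and 182 on day 1 and 64.4, 129 and 121 on day 3. Ifit2 read 359, 478 and 537 on day 1 and 328, 383 and 775 on day 3. Ifit3 read 384, 464 and 480 on day 1 and 231, 539 and 614 on day 3. In all 3 of them every clamped kidney was above both 0 min kidneys, and in Ifit1 and Ifit3 the 0 min kidney of day 3 was the lowest array by some distance.

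The factors that carry the type I signal differed from one another. Irf9, the DNA-binding part of the complex on the response element, read 287, 333 and 393 on day 1 and 259, 403 and 525 on day 3, in the order of clamp time on both days. Irf7, which amplifies interferon transcription, read 126, 125 and 158 on day 1 and 146, 170 and 225 on day 3. Stat2, the partner of Irf9, read 105, 88.3 and 83.3 on day 1 and 71.6, 105 and 136 on day 3. On this probe set of Stat2 both clamped kidneys were below 0 min on day 1 and above it on day 3. A dimmer one, at 78.5, 71.9 and 82.1 on day 1 and 56.4, 51.7 and 81.0 on day 3, had its clamped kidneys on both sides of 0 min on each day.

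The 2',5'-oligoadenylate synthetase family, whose enzymes make the messenger that activates RNase L, had no common pattern. Oas1a read 282, 335 and 284 on day 1 and 327, 299 and 421 on day 3. Oas2 read 80.2, 47.1 and 67.6 on day 1 and 47.0, 133 and 108 on day 3, with the clamped kidneys again on opposite sides of 0 min on the 2 days. Oasl2 read 109, 205 and 128 on day 1 and 87.1, 151 and 207 on day 3, with all 4 clamped kidneys above both 0 min kidneys.

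Genes for sensing and for restraint of the response came next. Ifih1, the cytosolic sensor MDA5 of long double-stranded RNA, read 248, 287 and 334 on day 1 and 182, 251 and 395 on day 3, in the order of clamp time on both days. Usp18, which removes Isg15 from proteins and damps receptor signalling, read 97.8, 154 and 102 on day 1 and 131, 156 and 131 on day 3, so that it was highest at 45 min on both days. The nucleic acid sensor genes Zbp1 and Dhx58 lay below the filter, with intensities of 4.56 to 56.3 and 14.4 to 42.5, and are not interpreted.

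Of the remaining effectors, Xaf1, linked to cell death, read 189, 310 and 247 on day 1 and 201, 171 and 436 on day 3. Its other probe set, below the filter, read 68.8, 30.3 and 52.9 on day 1 and 49.7, 54.9 and 18.5 on day 3. There 60 min of day 3 was the lowest array, with a fitted clamped minus 0 min difference of -0.50 against 0.47. Rtp4 read 232, 463 and 419 on day 1 and 388, 418 and 563 on day 3, so its 0 min kidneys lay far apart. Parp14, an ADP-ribosyltransferase, read 240, 242 and 308 on day 1 and 224, 192 and 437 on day 3. On the probe sets used for Xaf1 and Parp14, the 45 min kidney of day 3 was the lowest array and the 60 min kidney of that day the highest. A dimmer probe set of Parp14, at 44.0, 59.2 and 71.3 on day 1 and 30.3, 67.4 and 93.1 on day 3, was lowest at 0 min of day 3, with a fitted clamped minus 0 min difference of 0.74 against 0.27.

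Bst2, the tether that holds budding virus on the cell surface, read 199, 228 and 266 on day 1 and 326, 253 and 387 on day 3. Ifi27 read 1332, 1420 and 1433 on day 1 and 1426, 1435 and 1859 on day 3. Ifi35 read 1896, 1865 and 2612 on day 1 and 1727, 1727 and 2075 on day 3, with the 60 min kidney above the others on each day. On day 3 its other probe sets read 372, 307 and 347, and 291, 367 and 301, with 60 min not the highest. On the probe sets used, these genes spanned a ratio of less than 2 between their lowest and highest arrays.

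Rsad2 and Cmpk2, neighbouring genes of nucleotide-based antiviral defence, were the only members whose fitted difference between clamped and 0 min kidneys was below 0. Rsad2, or viperin, read 1297, 1657 and 1359 on day 1 and 1873, 1112 and 1294 on day 3, the reverse of Stat2 and Oas2. Cmpk2 read 341, 333 and 262 on day 1 and 366, 294 and 312 on day 3. A dimmer probe set of Cmpk2 ran the other way, at 60.0, 91.1 and 86.2 on day 1 and 76.0, 102 and 114 on day 3, so no direction is given for that gene.

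**Figure D2:**
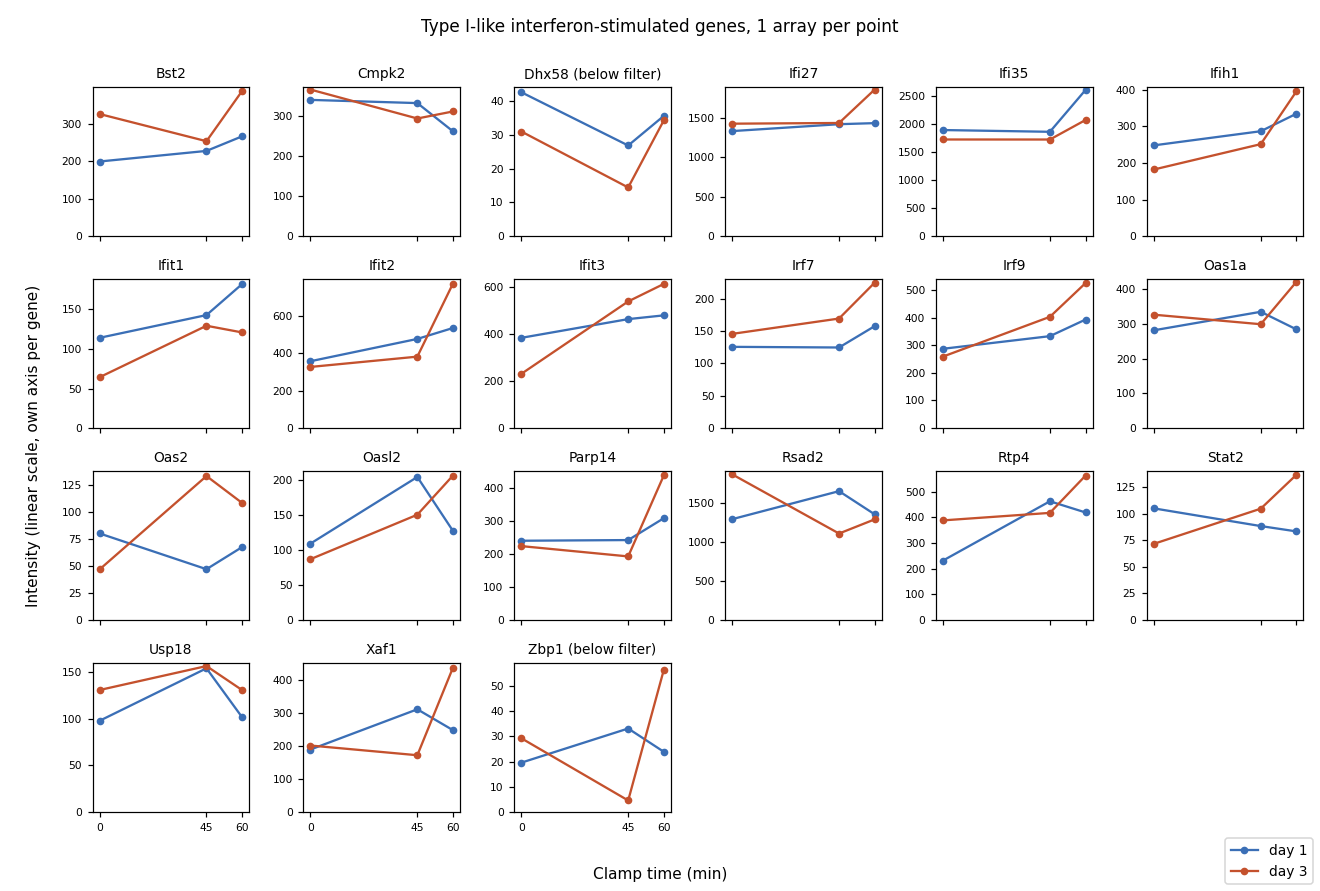
Intensity (linear, an axis of its own for each gene) of the 21 type I-like genes with a probe set against clamp time in min, with 1 point per array and lines joining the arrays of a day. Irf9, Ifih1, Ifit2 and Ifit3 follow clamp time on both days, whereas the lines of Stat2, Oas2 and Rsad2 cross; Dhx58 and Zbp1 lay below the filter.

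The first comparison asked how clamped kidneys, the mean of 45 and 60 min, differed from 0 min kidneys when day was allowed for. On the log2(intensity + 16) scale, which shrinks the differences of dim genes, 30 of the 32 genes were higher and 2, Cmpk2 and Rsad2, were lower. The median difference was 0.58 over the gamma-like genes, 0.27 over the type I-like genes and 0.01 over all genes tested. None of the 32 passed an adjusted p under 0.05. At an unadjusted p under 0.05, 15 of the 32 were higher, 8 gamma-like and 7 type I-like, against 9.56% of all genes, and 0 were lower, against 5.03% of all genes. At that p 13 members were higher under quantile normalization, against 8.1% of all genes, and 13 under median centring, against 7.27%. Of all genes past it, 65.5% were higher as deposited, 54.4% after quantile normalization and 46.8% after median centring.

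The guanylate-binding proteins and Ubd had the largest differences in this comparison. The difference was 1.23 ± 0.21 for Gbp3 (SE, adjusted p = 0.174 by limma), 1.10 ± 0.23 for Gbp2 (adjusted p = 0.208) and 0.87 ± 0.12 for Gbp7, whose adjusted p of 0.162 was the lowest of the 32. Ubd, at 1.15 ± 0.43, lay between Gbp3 and Gbp2 in size, with a wider error. The other gamma-like genes past an unadjusted p under 0.05 were Iigp1 (0.76 ± 0.17), Irf1 (0.58 ± 0.14), Ifi47 (0.51 ± 0.19) and Tap1 (0.47 ± 0.18). Psmb8, at 0.64 ± 0.25, missed it. The type I-like genes past it were Ifit3 (0.77 ± 0.25), Oasl2 (0.70 ± 0.25), Ifit1 (0.63 ± 0.17), Rtp4 (0.59 ± 0.21), Ifit2 (0.59 ± 0.21), Irf9 (0.55 ± 0.16) and Ifih1 (0.52 ± 0.18). The differences of the other 16 lay within 2 times their standard errors, as with Xaf1 at 0.47 ± 0.33. The count of 15 rested partly on the 0 min kidney of day 3: without that array it was 4, against 5.87% of all genes. It was also 8 without the 45 min kidney of day 1, against 8.38%, and 8 without the 60 min kidney of day 3, against 5.91%.

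**Figure D3:**
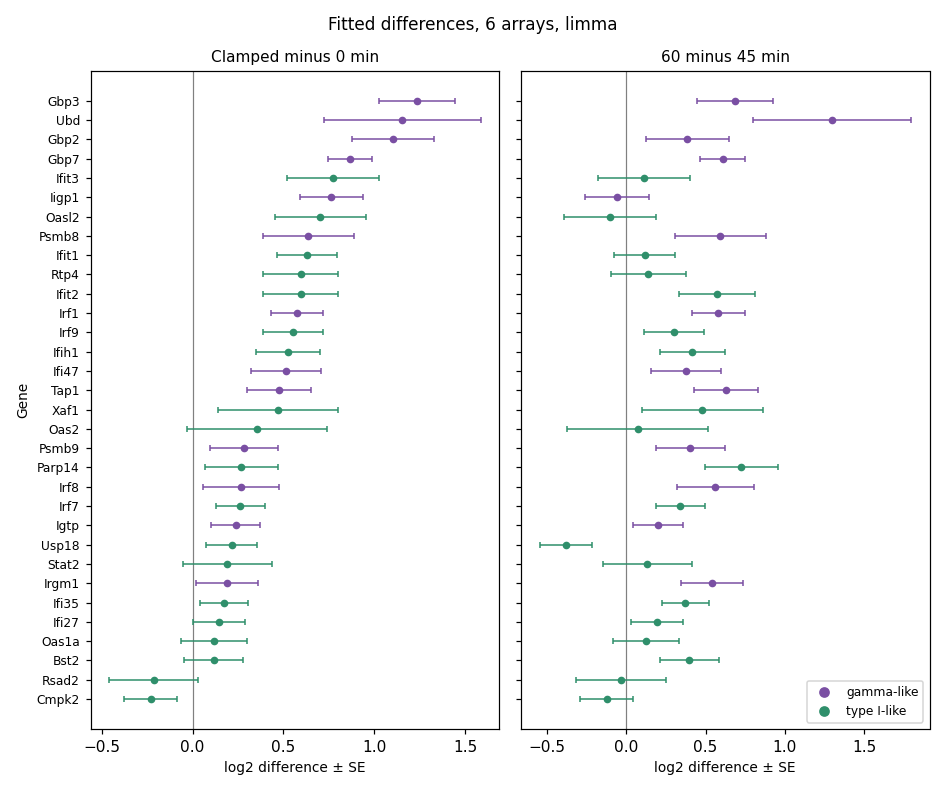
Fitted log2 difference, with its standard error as bars, of each of the 32 genes for clamped minus 0 min (left) and 60 minus 45 min (right); purple points are gamma-like and green points type I-like. On the left all genes but Rsad2 and Cmpk2 lie above 0, led by Gbp3 at 1.23 and Ubd at 1.15, and on the right Ubd lies farthest from 0 at 1.30.

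When each clamped kidney was set against the 0 min kidney of its own day, that of 60 min and day 3 differed most. In that kidney 13 of the 32 genes were at least 2-fold higher, against 7.58% of all genes, and 0 were 2-fold lower, against 2.32%. They were the gamma-like Ubd (log2 difference 2.86), Gbp3 (1.88), Gbp2 (1.79), Psmb8 (1.32), Gbp7 (1.22), Tap1 (1.12), Iigp1 (1.04) and Irf1 (1.04), and the type I-like Ifit3 (1.35), Ifit2 (1.20), Oasl2 (1.11), Xaf1 (1.06) and Ifih1 (1.05). The median was 1.04 over gamma-like genes, 0.77 over type I-like genes and 0.04 over all genes. Several of these lay close to the 2-fold line, so the count depended on the scaling. It was 7 after quantile normalization, against 6.22% of all genes, and 7 after median centring, against 5.77%. In both cases the members were Gbp2, Gbp3, Gbp7, Ifit2, Ifit3, Psmb8 and Ubd. Of all genes past 2-fold, 76.6% were higher as deposited and 59.1% after median centring, which lowered the median of all genes in this comparison to -0.13.

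The other clamped kidneys had few members past 2-fold. At 45 min of day 1 it was 1, Gbp3 (1.01), against 3.57% of all genes. At 60 min of day 1 there were 2, Gbp3 (1.27) and Gbp7 (1.12), against 4.39%. At 45 min of day 3 there were 3, Oas2 (1.25), Ifit3 (1.17) and Gbp2 (1.08), against 1.5%, where 65.6% of all genes past 2-fold were higher as deposited, 55.0% after quantile normalization and 48.7% after median centring. In these 3 kidneys 0 members were 2-fold lower, against 1.06%, 1.71% and 0.785% of all genes. The medians of gamma-like and type I-like genes were 0.28 and 0.20 at 45 min of day 1, 0.55 and 0.31 at 60 min of day 1, and 0.29 and 0.20 at 45 min of day 3. Each pair of comparisons of a day shares its 0 min array.

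**Figure D4:**
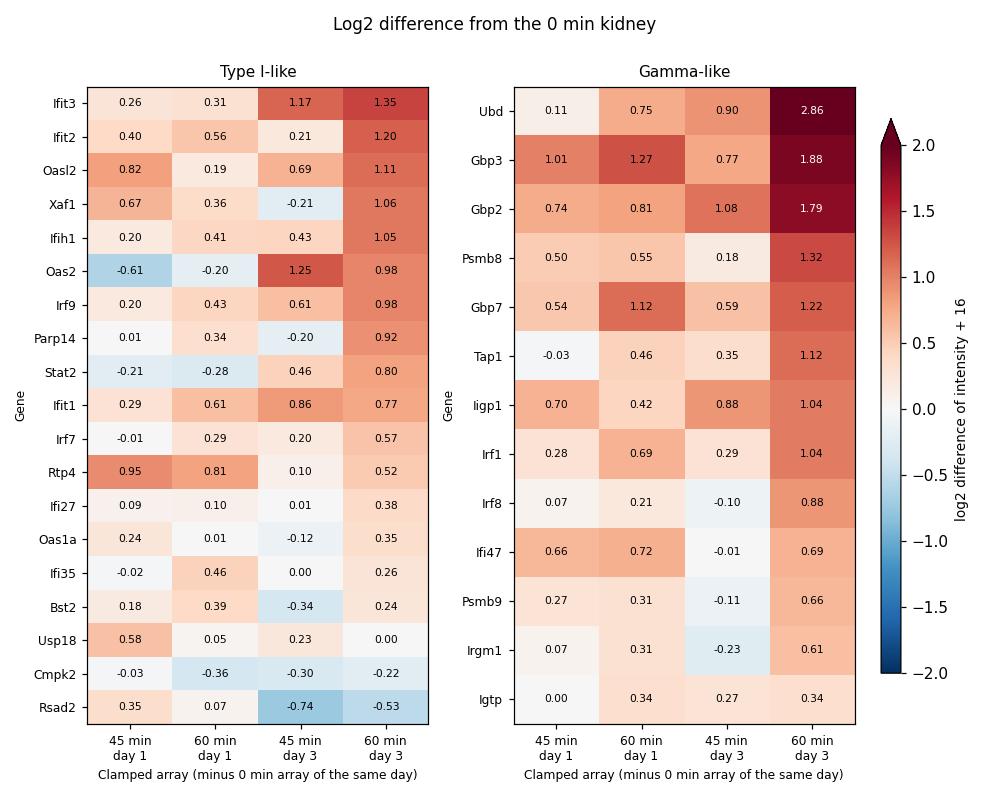
Log2 difference of intensity + 16 of each clamped array from the 0 min array of its day, for 19 type I-like genes (left) and 13 gamma-like genes (right), with 1 array on each side of a difference; red is higher and blue lower, and the colour scale ends at 2.0. The column of 60 min day 3 holds the deepest reds, led by Ubd at 2.86, Gbp3 at 1.88 and Gbp2 at 1.79.

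The arrays were also compared by order alone. On the probe sets used, the 60 min kidney of day 3 was the highest array for 25 of the 32 genes, against 26.5% of all genes. The exceptions were Cmpk2, Ifi35, Ifit1, Igtp, Oas2, Rsad2 and Usp18. On second probe sets above the filter, Gbp7 and Stat2 were instead highest at 60 min of day 1. Intensity followed clamp time, with 0 below 45 below 60 min on both days, in 11 genes, against 9.57% of all genes. These were Gbp2, Gbp3, Gbp7, Irf1, Psmb8 and Ubd among the gamma-like genes, and Ifi27, Ifih1, Ifit2, Ifit3 and Irf9 among the type I-like genes. A second probe set of Ifi27 had 45 below 0 min on both days. All 4 clamped arrays lay above both 0 min arrays in 12 genes, against 10.9% of all genes: Gbp2, Gbp3, Gbp7, Iigp1 and Irf1, and Ifih1, Ifit1, Ifit2, Ifit3, Irf9, Oasl2 and Rtp4. These orders were defined after the values had been seen.

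Lengthening the clamp from 45 to 60 min went with higher gamma-like values. The fitted median of 60 against 45 min was 0.56 over gamma-like genes, 0.14 over type I-like genes and 0.05 over all genes. None of the 32 passed an adjusted p under 0.05, against 0% of all genes. At an unadjusted p under 0.05, 7 members were higher, against 7.76% of all genes, and 0 were lower, against 5.29%. They were Ubd (1.30 ± 0.50), Parp14 (0.73 ± 0.23), Gbp3 (0.68 ± 0.24), Tap1 (0.63 ± 0.20), Gbp7 (0.61 ± 0.14, adjusted p = 0.311 by limma), Irf1 (0.58 ± 0.17) and Irgm1 (0.54 ± 0.20). Usp18 had the lowest difference, -0.38 ± 0.16.

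The larger part of that difference came from day 3. Between the 60 and 45 min kidneys of day 3, 5 members were at least 2-fold higher, against 5.96% of all genes: Ubd, Psmb8, Xaf1, Parp14 and Gbp3. Between those of day 1 it was 0, against 1.02%. The gamma-like median was 0.77 on day 3 and 0.24 on day 1, and the type I-like median 0.37 and 0.05. Without the 60 min kidney of day 3, 0 members passed an unadjusted p under 0.05, against 1.88% of all genes, and the type I-like median was 0.03. Without the 45 min kidney of day 3, the gamma-like median was 0.31 and the type I-like median 0.20. Without the 60 min kidney of day 1, they were 0.76 and 0.39.

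The 0 min kidneys of the 2 days held no member 2 times apart. Between day 3 and day 1 at 0 min, 0 members were at least 2-fold higher, against 1.71% of all genes, and the medians were 0.15 over gamma-like and -0.09 over type I-like genes. At 45 min 2 were, Ubd and Oas2, against 1.19%. At 60 min 2 were, Ubd and Psmb8, against 3.01%. In the fit over clamped kidneys, day 3 against day 1, 3 members were higher at an unadjusted p under 0.05, against 1.75% of all genes: Ubd (2.04 ± 0.68), Oas2 (0.91 ± 0.23) and Iigp1 (0.61 ± 0.20). None passed an adjusted p under 0.05, with 0.997 the adjusted p of each by limma. This count hung on single arrays, being 0 without the 45 min kidney of day 1, against 0.919% of all genes, and 17 without the 45 min kidney of day 3, against 7.11%.

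The test of whether the difference between clamped and 0 min kidneys was itself different on day 3 found 2 members higher at an unadjusted p under 0.05, against 1.18% of all genes. They were Oas2 (1.52 ± 0.40) and Ifit3 (0.97 ± 0.31). For Ifit3 both days had clamped kidneys above 0 min, by 0.26 and 0.31 on day 1 and by 1.17 and 1.35 on day 3. No member passed an adjusted p under 0.05, so a clamp effect that differs between days was not shown for any of them. On simulated arrays this contrast recovered 0% of log2 differences of 1, 2 or 3. The lack of calls therefore cannot decide whether the effect differed. The count was 0 without the 45 min kidney of day 1, against 0.589% of all genes, and 5 without that of day 3, against 3.65%.

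The genes with and without a promoter match were set side by side. Of the 17 tested members with either motif in a window, 8 were at least 2-fold higher at 60 min of day 3, and of the 9 with a window and neither motif, 4 were, against 7.58% of all genes. The median log2 difference there was 0.88 in the former and 0.98 in the latter, with ranges of -0.53 to 1.88 and -0.22 to 2.86.

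Upstream of these genes, the interferons themselves were at or near the lower end of the arrays. Of the 14 ligand genes listed 10 had a probe set and 1, Ifnz, passed the filter, at 188, 134 and 100.2 on day 1 and 92.9, 64.5 and 127 on day 3. Ifnb1 read 31.5 to 46.9 over the 6 arrays. Ifng read 15.3, 7.71 and 1.29 on day 1 and 26.7, 1.98 and 4.32 on day 3, too low for the order of its arrays to be interpreted. The fitted difference of Ifnz between clamped and 0 min kidneys was -0.32 ± 0.30, and the other 9 lay below the filter and were not tested.

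The receptors and their kinases were measurable in 12 of 14 genes, with a median difference of 0.22 between clamped and 0 min kidneys. Ifngr2, the signalling chain of the gamma receptor, read 260, 290 and 484 on day 1 and 215, 256 and 768 on day 3, a fitted difference of 0.75 ± 0.23. Ifngr1, the binding chain, read 875, 945 and 1148 on day 1 and 818, 926 and 1689 on day 3 (0.43 ± 0.18). Both chains had their highest value on each day at 60 min, as did Ifnar1 and Ifnar2 of the type I receptor. For the type I receptor the differences were smaller, 0.26 ± 0.13 for Ifnar1 and 0.21 ± 0.18 for Ifnar2. Ptpn6, a phosphatase that restrains JAK signalling, was lower in every clamped kidney, at 653, 574 and 422 on day 1 and 697, 476 and 474 on day 3 (-0.47 ± 0.15). Ifngr2 and Ptpn6 were the only ones of the 12 past an unadjusted p under 0.05, 1 in each direction, against 9.56% of all genes higher and 5.03% lower. The other members, Ptpn2 (0.26 ± 0.13), Jak1 (0.23 ± 0.14), Il10rb (0.22 ± 0.17), Jak2 (0.14 ± 0.13), Pias1 (0.10 ± 0.13), Ifnlr1 (0.02 ± 0.18) and Tyk2 (-0.08 ± 0.14), did not pass it. Socs1 read 10.1 or less and lay below the filter.

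The sensing genes that induce interferon gave 12 tested of 15, with a median of 0.08 and 4 higher at an unadjusted p under 0.05, against 9.56% of all genes. The 4 largest differences were those of Sting1 (0.88 ± 0.34), the adaptor of the DNA sensor, Tlr7 (0.52 ± 0.18), Cgas (0.47 ± 0.14), the DNA sensor itself, and the kinase gene Ikbke (0.46 ± 0.15). Sting1 read 87.1, 201 and 167 on day 1 and 177, 192 and 534 on day 3, again highest at 60 min of day 3. Of the other interferon regulatory factors 3 of 5 were tested, and Irf2, named after its values were seen, was higher by 0.64 ± 0.16.

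Wider lists of interferon-stimulated genes kept the order of the members' medians for 60 against 45 min. The median there was 0.30 over the gamma-like and 0.28 over the type I-like list. For clamped against 0 min, to which the values below refer, they did not, with the type I-like list slightly above the gamma-like one. Of 42 further type I-like genes 30 were tested, with a median of 0.35, 7 higher and 0 lower at an unadjusted p under 0.05, against 9.56% and 5.03% of all genes, and 0 past an adjusted p under 0.05. The 4 largest differences were those of Slfn4 (0.82 ± 0.15), Ifi203 (-0.71 ± 0.28), Ifitm3 (0.70 ± 0.18), which blocks virus entry, and the kinase Eif2ak2 (0.62 ± 0.16). Of 28 further gamma-like genes 17 were tested, with a median of 0.32, 8 higher and 1 lower at that p, against the same shares of all genes (9.56% and 5.03%), and 0 past an adjusted p under 0.05. The T-cell attractants led them. Ccl5 read 39.5, 109 and 231 on day 1 and 88.3, 168 and 543 on day 3 (1.64 ± 0.17). Cxcl10 read 76.7, 166 and 258 on day 1 and 102, 228 and 518 on day 3 (1.44 ± 0.18). Cxcl11 (1.19 ± 0.22) and the immunoproteasome subunit Psmb10 (0.66 ± 0.17) followed, and Ccl5, Cxcl10 and Cxcl11 were in the order of clamp time on both days.

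Cell markers differed between the same arrays, and in whole kidney a change in the number of cells of a type and a change in RNA per cell cannot be told apart. Of 19 monocyte and macrophage markers 16 were tested, and their median difference from the 0 min kidney was 0.66 at 45 min and 0.70 at 60 min of day 1, 0.59 at 45 min of day 3 and 2.01 at 60 min of day 3, where 15 of 16 were at least 2-fold higher, against 7.58% of all genes. Their summed intensity was 7807, 15083 and 14411 on day 1 and 16301, 24863 and 60473 on day 3, and the marker Cd163 lay below the filter. Msr1, Cd68, Cd14 and Lyz2 had the largest fitted differences, led by Msr1 at 1.55 ± 0.29. The summed intensity of 6 genes of all leukocytes was 1806, 3053 and 3094 on day 1 and 2988, 3803 and 11374 on day 3. The 60 min kidney of day 3 was thus the highest array for these markers, as for 25 of the 32 interferon-stimulated genes, and the lowest in actin ratio. Their part in the result was not tested.

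Markers of the cells that make interferon gamma were dim. Of 18 T and NK cell markers 3 were tested, Cd8a, Klrd1 and Prf1; Cd3d, Cd3e, Cd3g and Ncr1 lay below the filter, and the list's summed intensity was 427 to 672 over the arrays. Between clamped and 0 min kidneys the difference was -0.53 ± 0.16 for Cd8a, 0.26 ± 0.15 for Klrd1 and -0.15 ± 0.18 for Prf1. Neutrophil markers had a median difference of 0.43 over 6 genes, led by Clec4d (2.00 ± 0.36), those of dendritic cells 0.22 over 4 genes, and those of B cells -0.38 over 3 genes. Endothelial markers, whose cells also answer to interferon, had a median of 0.14 over 9 genes, and the 9 tubule and glomerulus markers tested a median of -0.31. The 4 markers of injured tubule had a median of 2.47.

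**Figure D5:**
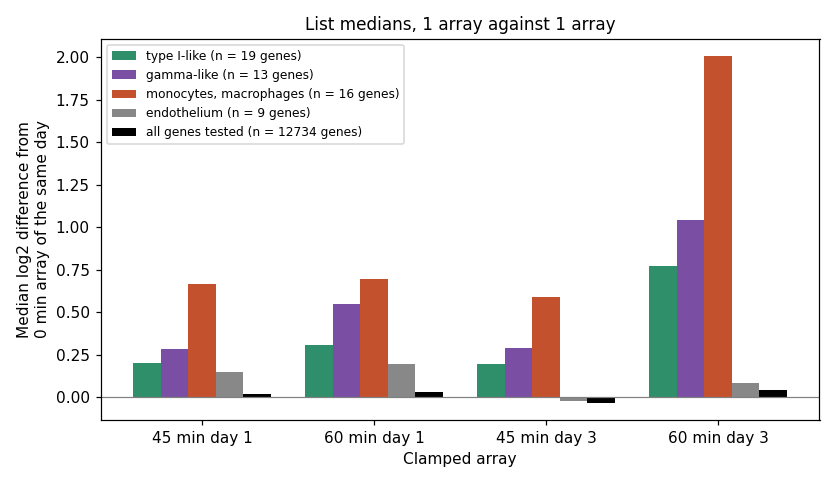
Median log2 difference of each clamped array from the 0 min array of its day, for the type I-like and gamma-like genes, monocyte and macrophage markers, endothelial markers and all genes tested, with 1 array on each side and no error bars. At 60 min of day 3 the medians were 0.77, 1.04, 2.01, 0.08 and 0.04 in that order.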

How the data were processed

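The authors deposited 1 linear intensity per probe set and array, made with Affymetrix Expression Console (submitters' processing notes; version and summarising algorithm not given in the sources used here). Per the labels, total RNA was extracted with Trizol and copied from its 3' end into biotinylated cRNA. The mean after trimming 2% at each end was 500.003 on all 6 arrays, so a shift in many bright genes would move the rest. Of 45101 probe sets, 64 were controls, and 34945 had 1 symbol, 932 several and 9160 none; 34741 of those with 1 symbol matched the reference gene table, where 0 symbols differed. The members and the other gene lists were chosen with earlier results of these data known.

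From the deposited intensities, log2(intensity + 16) was fitted with limma 3.58.1 in R 4.3.3 over all 12734 genes past the filter (40th percentile of mean log2), with Benjamini-Hochberg adjustment and a threshold of 0.05. Clamped against 0 min and 60 against 45 min came from clamp time plus day, and the 2 day contrasts from 4 cells that join the 45 and 60 min arrays of a day. Both fits left 2 residual degrees of freedom, and a real difference between days or clamp times counts there as spread. The 9 comparisons of 1 array with another were called at 2-fold, with no p. The fits were tested on simulated arrays. Every member is named by its role; receptors are all named, and other lists by their 4 largest differences. Alternatives were quantile normalization, median centring, other filters and pseudocounts (1 and 64), other probe set rules, other variance models, clamping as 2 levels, a 1.5-fold call and leaving out each array.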

Additional observations from a re-analysis of the deposited data

Results flagged for a closer look

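For Stat2, Oas2 and Rsad2, both clamped kidneys lay on one side of the 0 min kidney on day 1 and on the other side on day 3, on the probe sets used. A second probe set of Stat2 above the filter had no such crossing. The difference between the clamp effects of day 3 and day 1, as a log2 difference with its standard error, was 0.88 ± 0.35 for Stat2, 1.52 ± 0.40 for Oas2 and -0.84 ± 0.35 for Rsad2. None passed an adjusted p under 0.05 (limma), and each direction rests on 1 array at 0 min per day. No group held enough arrays for a test of outlying samples.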

How the results depend on the processing

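The fit of clamp time plus day already sets arrays of the same day against each other; the labels give no replicate numbers by which to pair them further. All genes past an adjusted p under 0.05 for clamped against 0 min numbered 0, but 1 under median centring, 75 with a robust variance trend, where Gbp7 was the 1 member to pass (adjusted p = 0.0375), and 0 to 200 when each array was left out, with 200 without the 45 min array of day 3. For clamped against 0 min, leaving out each array gave a type I-like median of 0.22 to 0.42 and a gamma-like median of 0.44 to 0.73. Leaving out arrays moved the type I-like median of 60 against 45 min between 0.034 and 0.39, the gamma-like median of that contrast between 0.27 and 0.76, and the gamma-like median of day 3 against day 1 in clamped kidneys between -0.011 and 0.72. The count of members at least 2-fold higher at 45 min of day 1 was 0 with quantile normalization, against 3.25% of all genes. It was 0 with median centring, against 3%, 0 with a pseudocount of 64 and 7 at 1.5-fold. At 60 min of day 1 it was 8 at 1.5-fold. At 45 min of day 3 it was 1 with a pseudocount of 64 and 10 at 1.5-fold. At 60 min of day 3 it was 7 with quantile normalization, against 6.22% of all genes, and 7 with median centring, against 5.77%. It was also 7 with a pseudocount of 64 and 22 at 1.5-fold. For 60 against 45 min it was 2 at 1.5-fold on day 1, and 3 with the mean of probe sets and 15 at 1.5-fold on day 3. For day 3 against day 1 it was 4 at 1.5-fold at 0 min; at 45 min, 0 with the filter at the 60th percentile and 0 with a pseudocount of 64; and at 60 min, 1 with that filter, 1 with the mean of probe sets and 11 at 1.5-fold. The count lower was 1 at 1.5-fold at 45 min of day 1, at 45 min of day 3, for 60 against 45 min on day 1 and for day 3 against day 1 at 45 min, 3 at 1.5-fold for day 3 against day 1 at 0 min, and 1 without a filter at 45 min of day 3 and for day 3 against day 1 at 45 min. No share of all genes is given for the counts at 1.5-fold or under the other filters, pseudocounts and probe set rules. Those counts are therefore not read as a result about the members. The causes were not tested.

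Of the 32 members, 7 turned sign in some alternative for clamped against 0 min, each with a difference of at most 0.47 as reported. For 60 against 45 min 12 did, and in both of these contrasts 0 did so under a change of scaling. The 2 day contrasts were less stable, with 17 members turning sign in each. Under a change of scaling Xaf1 turned for clamped kidneys of day 3 against day 1. Oas1a, Irgm1, Psmb9 and Gbp7 turned in the contrast of clamp effects on the 2 days. Median centring moved the median of all genes to -0.12 at 45 min of day 3 and 0.12 for day 3 against day 1 at 0 min. The share higher among all genes past 2-fold for day 3 against day 1 went from 55.1% to 70.2% at 0 min and from 36.6% to 50.8% at 45 min under median centring. Dim members limit the reading of Zbp1, Dhx58, Oas2 and Stat2.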
